A study of Arabidopsis thaliana with 44 samples.

Results

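The MYB genes of Arabidopsis thaliana were followed across callus, inflorescence, leaf, root and silique on Agilent 2-colour oligonucleotide microarrays. A probe was taken as a member when it was a gene probe and its deposited description contained "myb" and neither "WRKY" nor "homeobox". This gave 184 members of 21500 gene probes. The rule itself used no measured value, but it was set with earlier results of these data known. Of the 184, 180 were found by locus in the RefSeq gene table and 118 carried a MYB number there. The description-based rule also took 6 genes annotated as pseudogenes and 1 gene described as a target-of-Myb1-like protein, which is not a MYB factor by its description. It passed over 15 genes of the role lists used below that have a probe but no "myb" in its description, such as LHY and TRY, and these are given as genes outside the members.

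MYB proteins bind DNA through repeats of a helix-turn-helix domain. In plants the class with a pair of repeats is by far the most numerous, and it is known for the control of phenylpropanoid and glucosinolate synthesis, cell fate in the epidermis, the cell wall, and the development of stamens and seeds. Single-repeat members include core clock factors and small proteins that compete with the larger MYB activators in the epidermis.

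The series compared microarrays with signature sequencing on the same RNA samples, and the 12 Agilent microarrays are used here. Of these, 8 were self-self microarrays, on which 1 RNA was labelled with both dyes, with 2 technical replicates (A and B) of each tissue: actively growing callus, immature inflorescence buds of mixed stage, and untreated leaf and root, both at 21 days. On the other 4, non-self, microarrays, 2 had leaf in the green and root in the red channel, and 2 had inflorescence in green and silique, collected 24 to 48 hr after fertilization, in red. The labels name no treatment for callus, inflorescence or silique and no mutant genotype for any of the 5 tissues, and A and B were labelled as replicas of 1 RNA sample, so that all p-values below measure the technical spread only and not that between plants. These are bulk tissues, in which fewer cells of a type and less RNA per cell cannot be told apart.

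On the self-self and root/leaf microarrays, 95.7 to 100% of the members were well above background. The silique channel was dim, with 48.9% of the members well above background on microarray A and 42.9% on B, against 90.2% and 86.4% in the inflorescence channel. Over all gene probes these shares were 76% and 70.5% in silique, and 91.6% and 90.2% in inflorescence. In silique the members thus lay further below the whole microarray than in inflorescence. On 18 members (A) and 35 members (B) of these 2 microarrays the deposited ratio was exactly 0, and 12 members were at 0 on both. No member was saturated. The tissue markers followed the labels on the non-self microarrays, where 4 of 4 leaf genes were lower and 4 of 4 root hair genes higher in root than in leaf. In silique over inflorescence 3 of 4 flower genes were lower and 2 of 4 leaf genes higher. The flower genes summed to 1039 and 990 NEU in inflorescence, 19.0 to 26.2 in leaf and root, and 275 and 218 in callus, where PI made up 267 and 208, and their part in the callus results was not tested. Root microarray A stood apart: the summed level of 4 leaf genes (RBCS1A, CAB2, CA1 and GAPB), in normalized expression units (NEU, the mean signal of both channels scaled to a sum of 1000000), was 2969 there against 156 on root microarray B and 6085 and 6436 on the leaf microarrays. On root A the red over green ratio of the members also correlated with their root/leaf ratio (Pearson's r = 0.43 over 184 members, against -0.16 to 0.09 on the other 7 self-self microarrays), although both channels were labelled as root. Of the 4 leaf genes, RBCS1A, CAB2 and GAPB were saturated on 9, 5 and 3 of the 12 microarrays, so that their sums may be too low, while CA1, saturated on none, was at 78.5 NEU on root A, 6.85 on root B and 643 and 638 in leaf. Several results on the single root microarrays are also given without root A. The 4 root hair genes summed to 172 NEU on root A and 214 on root B.

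Root against leaf was measured directly on the non-self microarrays. MYB68, RAX2, MYB92, MYB66, CPC and MYB63 were among the members higher in root, and MYB47, MYB16, MYB60, MYBL2, LCL1 and MYB29 among those higher in leaf. A limma fit with Benjamini-Hochberg adjustment over all gene probes called 111 of 178 members tested at an adjusted p under 0.05, of which 58 were higher and 53 lower in root. Over all gene probes 70% were called, 39.1% higher and 30.8% lower. The median log2 ratio was -0.01 for the members and 0.03 for all probes, and 62.4% of the members tested were called. With normexp background correction and loess the split became 52 higher and 74 lower. Of the called members, 26 were over 2-fold higher in root (11.7% of all gene probes) and 19 over 2-fold lower (10.9%), and the median difference between microarrays A and B was 0.08 on the log2 scale.

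**Figure D1:**
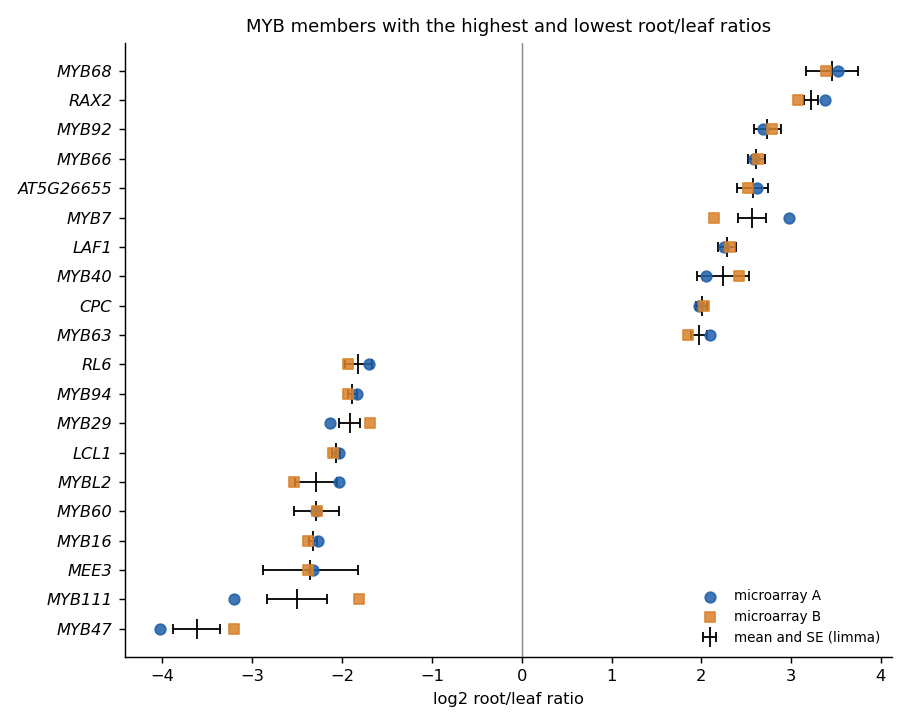
The log2 root/leaf ratio (x axis) is plotted for the 10 members highest in root and the 10 highest in leaf (y axis), as points for microarrays A and B and as the fitted mean with its SE. MYB68 lies farthest to the right at 3.45 and MYB47 farthest to the left at -3.62, and the points of A and B fall on the same side of 0 for all 20.

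Among the genes of the root, MYB68, known from pericycle cells, had log2 root/leaf ratios of 3.52 and 3.39 on microarrays A and B, with a mean of 3.45 ± 0.29 (SE, adjusted p = 8.56e-06, limma). On the self-self microarrays it was at 31.7 and 29.3 NEU in root, 35.4 and 30.1 in callus, 3.17 and 3.56 in inflorescence and no more than 3.42 in leaf. Root and callus did not overlap with leaf and inflorescence, and callus did not differ from root beyond the technical spread (log2 difference 0.10 ± 0.18, SE, adjusted p = 0.682, and 0.15 with adjusted p = 0.612 without root A). MYB92, which acts in the suberin of the endodermis, had ratios of 2.69 and 2.79, a 6.66-fold higher level in root (adjusted p = 6.06e-07). MYB93, known from endodermal cells over lateral root primordia, was 3.62-fold higher (adjusted p = 9.87e-05). MYB36, which directs the formation of the Casparian strip, was 2.12-fold higher (adjusted p = 1.13e-06). Of 11 listed root and root barrier genes, 8 were higher in root and 0 lower, with a median log2 ratio of 0.90. Over all gene probes 39.1% were higher and 30.8% lower. The other 3, MYB9, MYB39 and MYB41, had log2 ratios between -0.12 and 0.02 and did not pass the test. This list was named for root expression, so its direction is a check of the tissue rather than independent evidence.

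In the epidermis the MYB activators and their single-repeat inhibitors were measured together. MYB66 (WEREWOLF), which specifies the non-hair cells of the root, had log2 root/leaf ratios of 2.59 and 2.63, a 6.11-fold higher level in root (adjusted p = 6.89e-08). Its levels were 18.1 and 15.2 NEU in root, 11.3 and 10.1 in callus, and under 4 NEU in the other 2 tissues. MYB0 (GLABRA1), which starts trichomes on the shoot, was lower in root (log2 ratio -0.49, adjusted p = 0.00121), while MYB23, a close relative, was at -0.13 and did not pass the test. CPC, the mobile inhibitor that promotes root hair fate, had ratios of 1.97 and 2.04, a 4.01-fold higher level in root (adjusted p = 3.51e-08). ETC1, of the same group, was 3.38-fold higher in root, whereas ETC2 (log2 ratio -0.85) and CPL3 (-0.26) were lower. The 4 inhibitors thus divided into 2 higher and 2 lower, and both signs held on A and B for each. TRY, a listed inhibitor outside the members, was also lower in root (log2 ratio -0.34). Of their partners outside the members, the bHLH gene EGL3 was higher in root (log2 ratio 1.98), and the WD40 gene TTG1 was lower (-0.45). ATMYC1 (0.74) and TTG2 (0.51), listed beside them, were also higher. Of the 6 genes of this list tested, 3 were higher and 1 lower, beside 39.1% and 30.8% over all gene probes.

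Of the regulators of lignin and the secondary wall, 6 of 12 listed members were higher in root and 1 lower, with a median log2 ratio of 0.26, beside 39.1% higher and 30.8% lower over all gene probes. MYB63, an activator of lignin genes, had ratios of 2.10 and 1.85, a 3.93-fold higher level (adjusted p = 2.12e-07), and its relative MYB58 was at 0.66 (adjusted p = 3.96e-06). MYB61 was 3.11-fold higher and MYB43 2.82-fold higher. MYB20 was the 1 member lower in root (log2 ratio -0.73), and MYB46 and MYB83, known as master switches of the secondary wall, were at 0.15 and -0.04 and did not pass the test.

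The repressors of phenylpropanoid synthesis went both ways. Of 5 listed members 3 were higher and 2 lower in root, beside 39.1% and 30.8% over all gene probes. MYB7 was 5.90-fold higher in root, with ratios of 2.97 and 2.15 that differed more between A and B than those of most members (adjusted p = 1.35e-06). MYB4, which represses the synthesis of sinapate esters, was 2.05-fold higher, and MYB32 was at 0.81. A separate probe described as ATMYB4, for AT5G26655, a locus not in the reference table, was 5.95-fold higher. MYBL2, a repressor of anthocyanin synthesis, was 4.88-fold lower in root, with log2 ratios of -2.04 and -2.54 (adjusted p = 3.40e-05). The flavonol activators were opposed as well: MYB111 had ratios of -3.20 and -1.81 (mean -2.50 ± 0.34, SE) and MYB12 of 1.48 and 1.13 (mean 1.31 ± 0.15), both past the threshold, and MYB11 was at 0.19 and was not.

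Other members high in root were RAX2, LAF1 and MYB40. RAX2, known from axillary meristems and described on the microarray as a light-regulated MYB protein, had log2 root/leaf ratios of 3.37 and 3.07, a 9.34-fold higher level (adjusted p = 1.12e-08). LAF1, which acts in phytochrome A signalling, was 4.88-fold higher, with ratios of 2.25 and 2.32. MYB40 was 4.72-fold higher. Of 6 listed meristem and boundary genes 3 were higher and 1 lower in root, beside 39.1% and 30.8% over all gene probes. The lower member was AS1, which represses knotted-type homeobox genes in leaves, at 2.71-fold lower (adjusted p = 1.10e-06, limma).

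In leaf, MYB47 was 12.3-fold higher than in root, with log2 root/leaf ratios of -4.03 and -3.21 (adjusted p = 4.00e-06). Its root signal was well above background on 1 of the 2 microarrays, and its levels were 6.41 and 5.15 NEU in leaf against 0.88 and 0.77 in root. MYB16, a regulator of the cuticle and of epidermal cell shape, had ratios of -2.27 and -2.37 (mean -2.32 ± 0.05, adjusted p = 4.95e-09). MYB60, known from guard cells, had ratios of -2.29 and -2.28, a 4.88-fold higher level in leaf. MYB94 and MYB96, activators of wax synthesis, were 3.69-fold and 2.80-fold higher in leaf. Across the 19 listed stress and hormone members tested, 11 were lower and 3 higher in root, with a median log2 ratio of -0.37. Over all gene probes 30.8% were lower and 39.1% higher.

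The clock members CCA1, RVE8 and LCL1 were higher in leaf, 2 of them (CCA1 and RVE8) making up the listed members. CCA1, a morning-phased core clock repressor, was 3.35-fold higher in leaf (log2 root/leaf ratios of -1.64 and -1.85), RVE8 was 2.89-fold higher and LCL1 4.19-fold higher (-2.03 and -2.10, adjusted p = 9.62e-09). LHY, the partner of CCA1 and a gene outside the members, was at -2.78, RVE2 at -2.13 and RVE1 at -0.87, whereas RVE7 (EPR1), also outside the members, was at -0.02 and did not pass the test (adjusted p = 0.69). The hour at which each tissue was collected is not given in the sources used here. Among the glucosinolate regulators, MYB29 of the aliphatic branch was 3.77-fold higher in leaf, MYB28 was at -0.58 (adjusted p = 0.000798), and MYB76, a neighbour of MYB29 on the chromosome, at -0.38 did not pass the test. Of the indolic branch, MYB51 was 2.17-fold higher in leaf, whereas MYB34 and MYB122, both outside the members, were higher in root (log2 ratios 2.03 and 1.77). The 4 anthocyanin activators were all below 0, between -0.53 for PAP1 and -0.25, and 3 passed the test, beside 30.8% lower over all gene probes. Of these MYB113, MYB114 and MYB90 are neighbours and closely related, and signal shared between their probes was not tested. On the self-self microarrays the 4 anthocyanin activators had a median log2 difference root minus leaf of 0.70, against 0.20 over all probes. There 0 were called higher and 0 lower.

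The second direct comparison was silique against inflorescence, tissues on both sides of fertilization. Silique had higher levels of the seed coat regulators TT2 and MYB5, and inflorescence of the MYB genes of stamens and pollen. The fit called 119 of 183 members tested, 54 higher and 65 lower in silique. Over all gene probes 65.5% were called, 32.9% higher and 32.6% lower, and the median log2 ratio was -0.01 for the members and 0 for all probes. Of the called members 17 were over 2-fold higher (7.68% of all gene probes) and 27 over 2-fold lower (8.01%). The median difference between microarrays A and B was 0.14 on the log2 scale, against 0.08 in root over leaf. Only the silique/inflorescence microarrays were extracted with the later software version, on a separate day, so version, day and comparison cannot be told apart. The fit pooled their spread with that of the brighter microarrays, so the p-values do not rest on this comparison alone. With only the 77 members kept that were well above background in both channels on both microarrays and tested, 43 were higher (41.3% of all gene probes kept) and 25 lower (36.5%), a filter that also takes out members low in silique. For 34 called members the dimmer tissue was not well above background on either microarray, and their ratio is given as a bound, "at least", where it is quoted as a fold. The bound sets the bright mean against the lowest signal that was well above background, or the dim probe's own signal where that was higher, as for MYB82, MYB101 and DUO1, whose bound is the measured ratio itself.

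**Figure D2:**
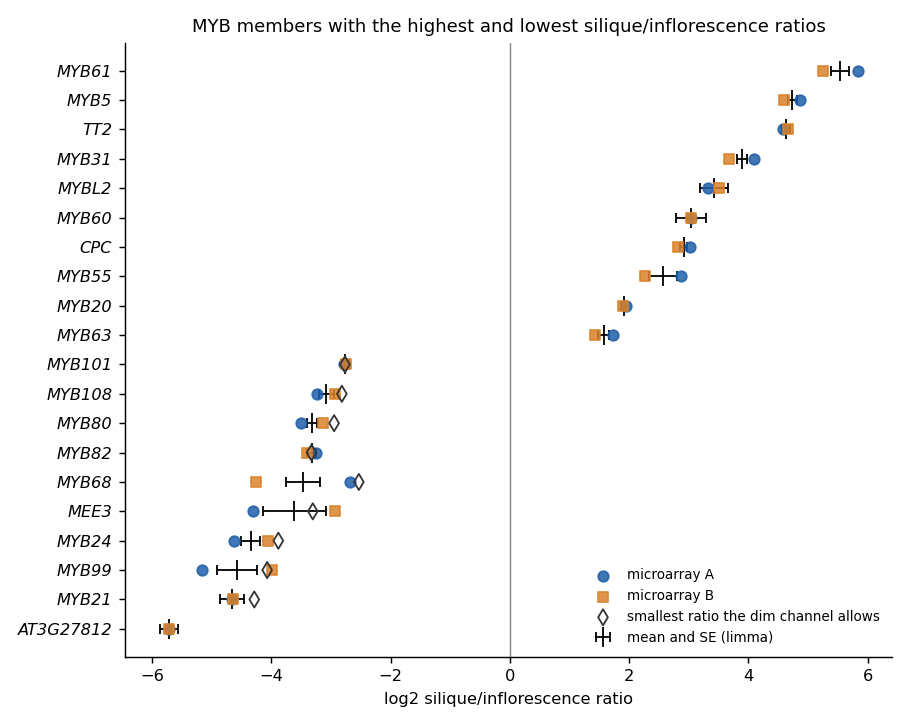
The log2 silique/inflorescence ratio (x axis) is plotted for the 10 members highest in silique and the 10 highest in inflorescence (y axis), as points for microarrays A and B, the fitted mean with its SE, and an open diamond at the bound set by a silique signal not well above background. MYB61 reaches 5.54 on one side and the probe for AT3G27812 -5.72 on the other.

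The seed coat regulators had some of the highest ratios of the family. This list of 2 was named for the seed coat, so its direction likewise checks the tissue and is not independent evidence. MYB5 had log2 silique/inflorescence ratios of 4.87 and 4.60, a 26.6-fold higher level in silique (adjusted p = 2.66e-09). TT2, which activates proanthocyanidin synthesis in the seed coat, had ratios of 4.58 and 4.67, a 24.7-fold higher level (adjusted p = 5.33e-09). In the root/leaf comparison the same genes were at -0.13 and -0.18. The 6 genes outside the members that were listed above with EGL3 and TTG1 went both ways. TT8, the bHLH partner of TT2, was at 5.29, TTG2 at 4.38, GL2 at 3.07 and EGL3 at 0.87. ATMYC1 was at -2.27 and TTG1 at -0.34. Of these 6 genes 4 were higher and 2 lower in silique, beside 32.9% and 32.6% over all gene probes. MYB61, known for seed coat mucilage as well as for the vasculature and stomata, had ratios of 5.83 and 5.24, a 46.4-fold higher level (adjusted p = 2.16e-08). In inflorescence it was at 2.09 and 1.83 NEU on the self-self microarrays, below its 19.6 and 20.6 in callus.

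Other members high in silique were MYB31, MYBL2, MYB60, CPC, MYB55, MYB20 and MYB63. MYB31 had log2 ratios of 4.10 and 3.68, a 14.8-fold higher level. MYBL2 had ratios of 3.33 and 3.51 and MYB60 of 3.04 and 3.03. CPC was 7.54-fold higher, whereas ETC1 was at 0.43 and ETC2 at -0.48, and the latter did not pass the test. Of the 12 secondary wall members 6 were higher and 4 lower, from 5.54 for MYB61 to -1.59 for MYB52, with a median of 0.20. The stress and hormone list counted 11 higher and 6 lower of 20, from MYB31 down to MYB108 at -3.08. Beside both lists, 32.9% of all gene probes were higher and 32.6% lower in silique.

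Of 15 listed members of stamen, pollen and gametophyte, 11 were lower in silique and 1 higher, with a median log2 ratio of -1.21. Over all gene probes 32.6% were lower and 32.9% higher. The list was named for roles in these parts, so its direction is a check of the tissue rather than independent evidence. MYB21, which with MYB24 and MYB57 drives stamen growth under jasmonate, had ratios of -4.67 and -4.65. Its silique level was lower by at least 19.5-fold (adjusted p = 2.36e-07). MYB24 was lower by at least 14.8-fold, with ratios of -4.64 and -4.06, and MYB57 by at least 5.59-fold. Of the genes known from the tapetum and pollen, MYB99 was lower by at least 16.8-fold, MYB80 by at least 7.72-fold, MYB101 by at least 6.81-fold and TDF1 by at least 2.51-fold. DUO1, which specifies the male germ cells, was lower by at least 2.31-fold. MYB26 was the 1 listed member higher in silique, at 0.22 (adjusted p = 0.0347), and MYB97, MYB98 and MYB119, which did not pass the test, lay between -0.06 and 0.06. MYB108, known from stamen maturation but kept in the stress list, was lower by at least 7.06-fold.

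The probe with the lowest ratio, for AT3G27812, is described as a putative Atmyb3. It had ratios of -5.72 and -5.72 and was well above background in both channels on both microarrays. Its locus is not in the reference table. Its number follows that of MYB21, AT3G27810, whose probe is likewise described as ATMYB3. On the self-self microarrays the probe for AT3G27812 was at 157 and 183 NEU in inflorescence and at 0.91 to 2.95 NEU on the 6 other microarrays. That for MYB21 was at 29.7 and 25.8 NEU in inflorescence and at 0.55 to 2.02 NEU elsewhere, and whether both probes detect 1 transcript was not tested.

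Further members were higher in inflorescence than in silique outside the stamen list. MYB68, low in inflorescence on the self-self microarrays, had silique/inflorescence ratios of -2.68 and -4.25, lower in silique by at least 5.79-fold, and the 2 microarrays differed by more than 1 log2 unit. MEE3, a single-repeat gene, was at -4.30 and -2.93, by at least 9.90-fold lower. MYB82, known from trichomes, was lower by at least 10.04-fold. Of the 6 meristem and boundary genes 4 were lower and 0 higher in silique, with a median of -0.99, beside 32.6% and 32.9% over all gene probes. Among them MYB117 was lower by at least 3.24-fold and RAX2 2.57-fold lower. MYB111 was 5.53-fold and MYB12 2.88-fold lower in silique, while MYB11, the third flavonol activator, was higher at 1.30 (adjusted p = 0.00021). Of the cell cycle and stomatal division list, 1 of 7 was higher and 3 lower, from -0.65 to 0.25, beside the same 32.9% and 32.6%.

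**Figure D3:**
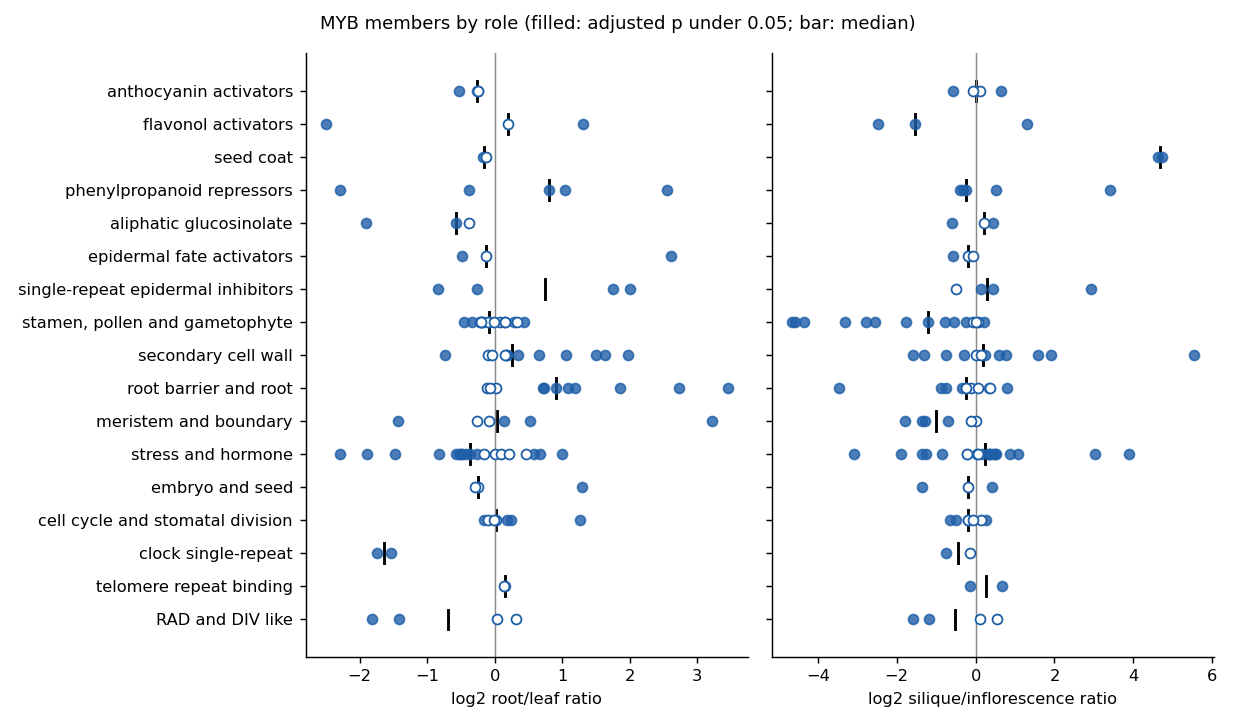
Each point is 1 member, placed by its role (y axis) and its log2 root/leaf ratio (left) or log2 silique/inflorescence ratio (right), filled where the adjusted p was under 0.05, with a bar at the median of the role. Lists with 1 member are left out. The root barrier genes have their median at 0.90 on the left and -0.23 on the right, and the stamen, pollen and gametophyte genes at -0.09 and -1.21.

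The direct comparisons used different tissues, and 177 members were tested in both. Of these, 17 were higher in root and in silique (9.6%, against 12.4% over all gene probes tested in both), 19 lower in both (10.7% against 8.58%), 25 higher in root and lower in silique (14.1% against 15.2%), and 19 lower in root and higher in silique (10.7% against 12.4%). The 34 called in neither were 19.2%, against 13.2%. CPC, MYB61 and MYB63 were among the first group, and MYB111, MEE3 and RL6, a RADIALIS-like gene, in the second. MYB68, RAX2 and MYB12 were higher in root than in leaf and in inflorescence than in silique. MYBL2, MYB60 and MYB94 were higher in leaf than in root and in silique than in inflorescence.

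**Figure D4:**
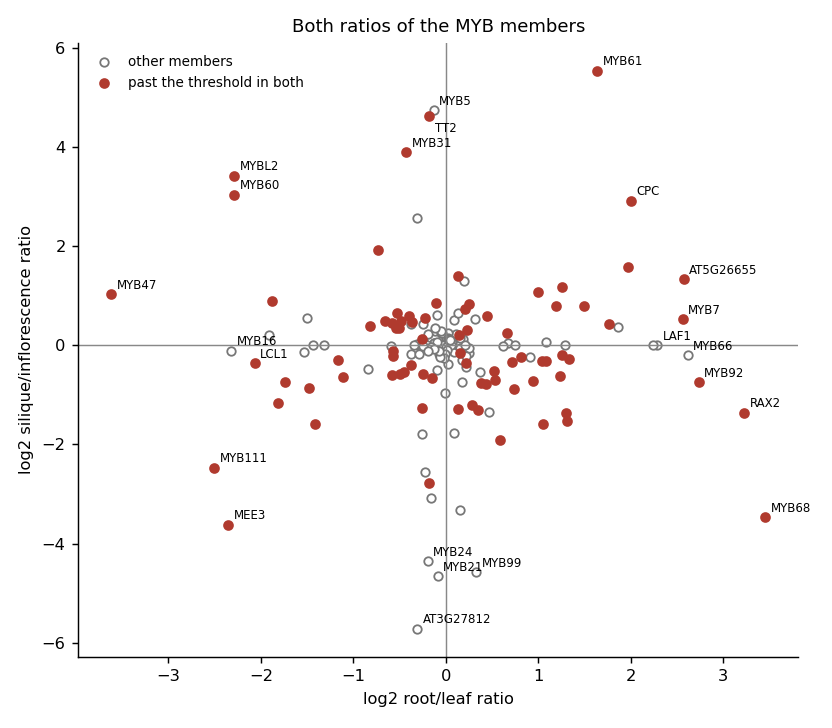
The log2 silique/inflorescence ratio (y axis) is plotted against the log2 root/leaf ratio (x axis) for the 177 members tested in both, filled where both passed the threshold. MYB61 lies at 1.63 and 5.54, MYB68 at 3.45 and -3.47, and MYBL2 at -2.29 and 3.42.

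Levels in the 4 single tissues were compared on the self-self microarrays, where callus could be placed beside the other tissues. Of the 184 members, 137 were called in at least 1 of the 6 pairs of tissues, 74.5% against 78% over all gene probes. Between root and leaf 44 of 176 were called (32.6% over all gene probes), 31 higher (19.4%) and 13 lower (13.2%) in root. Without root A the counts were 25 and 24. Between callus and inflorescence 58 of 180 were called (37.5% of all), 29 higher (15.5%) and 29 lower (21.9%) in callus. The members called numbered 94 of 177 between callus and root (51.7% of all) and 86 of 178 between callus and leaf (53.1% of all). Between inflorescence and leaf 60 of 178 were called (39.4% of all), 24 higher (21.7%) and 36 lower (17.7%) in inflorescence. Between inflorescence and root 86 of 178 were called (49% of all), 27 higher (22.6%) and 59 lower (26.4%). Without inflorescence B the counts of inflorescence against leaf and against root were 32 and 53, and without leaf A that of root against leaf was 29. Without root A, 97 were called between callus and root and 77 between inflorescence and leaf.

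By the file headers, feature extraction was run on 1 day for callus and inflorescence and on another for leaf and root. In the 4 pairs between these days, day and tissue cannot be told apart. By the slide barcodes, both root microarrays and leaf B were of 1 slide series, and leaf A, callus and inflorescence of another. Series and tissue thus cannot be told apart in callus or inflorescence against root, and they are partly mixed in root against leaf. In the 4 pairs between days the members lay low in callus and inflorescence. Their median log2 difference was -0.64 for callus minus root and -0.77 for callus minus leaf, against -0.27 and -0.20 over all probes. Quantile normalization moved the members' medians to -0.09 and -0.26, and the medians over all probes to 0.06 and 0.10. The split of calls moved with it, from 32 higher and 54 lower in callus than in leaf (24.9% and 28.3% over all probes) to 40 and 34, from 28 and 66 against root (19.5% and 32.2%) to 34 and 51, and in root against leaf from 31 and 13 to 30 and 20. For inflorescence the members' medians were -0.40 (minus leaf) and -0.51 (minus root), against -0.01 and -0.08 over all probes, and with quantile normalization -0.27 for both, against 0.02 for both. Its splits went from 24 and 36 to 25 and 38 against leaf, and from 27 and 59 to 34 and 55 against root. Within a day, the members' medians were 0.19 (root minus leaf) and -0.19 (callus minus inflorescence), against 0.20 and -0.10 over all probes.

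**Figure D5:**
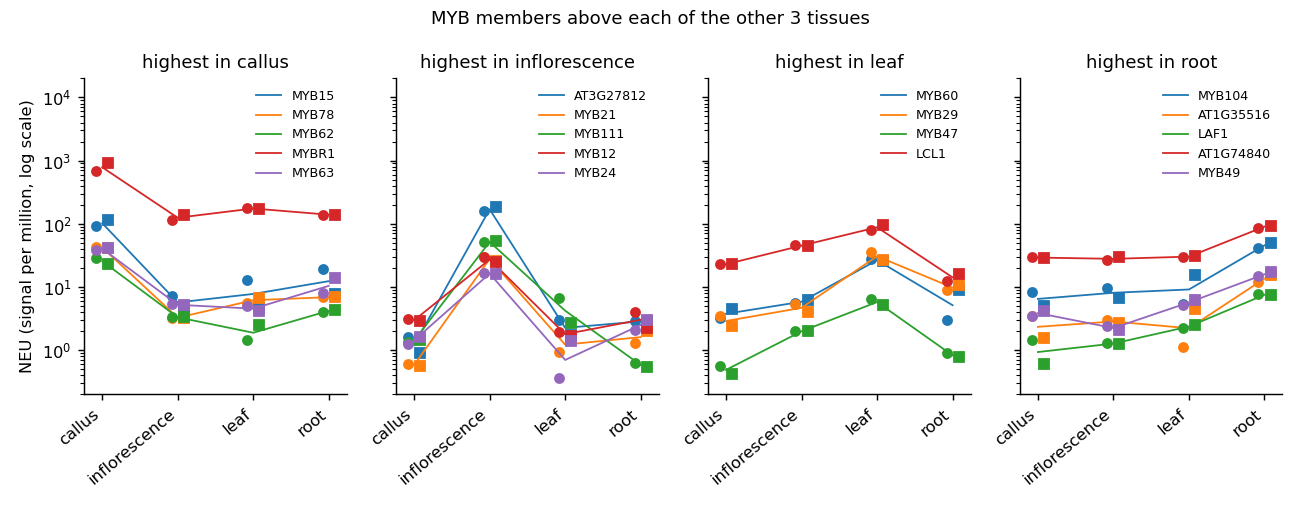
The level in NEU (y axis, log scale) of the members that were above each of the other 3 tissues is plotted by tissue (x axis), with up to 5 members a tissue, circles for microarray A and squares for B, and lines through the geometric means. MYBR1 was at 677 and 905 NEU in callus and the probe for AT3G27812 at 157 and 183 in inflorescence.

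Of 173 members tested in all pairs, 18 were above each of the other 3 tissues in callus (9.08% of all gene probes), 11 in inflorescence (7.23%), 4 in leaf (2.72%) and 14 in root (6.12%). As shares of the members these were 10.4, 6.36, 2.31 and 8.09%. Without root A the counts, of 175 members tested, were 15, 13, 11 and 11, and the 11 of leaf then included MYB76, MYBL2, RL6 and CPL3.

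Callus was high for several stress-responsive MYB genes. MYB15, known from cold and defence responses, was at 92.2 and 113 NEU in callus, at 19.4 and 7.78 in root, 13.0 and 4.58 in leaf and 7.08 and 4.52 in inflorescence. Callus was 8.28-fold above root, the next tissue (adjusted p = 0.0071), a log2 difference of 3.05 with and 3.71 without root A. MYBR1 (MYB44), which acts in abscisic acid responses, was at 677 and 905 NEU in callus and between 113 and 175 in the other tissues, a 4.49-fold difference from leaf (adjusted p = 0.00021). MYB78 was at 42.6 and 41.6 NEU in callus and between 3.23 and 6.92 elsewhere. MYB62, known from phosphate starvation, was at 28.2 and 23.1 NEU against 1.43 to 4.33, and MYB63 at 38.7 and 41.9 NEU against 4.13 to 13.6. For these 5 members the callus microarrays did not overlap with those of any other tissue. They were picked for their distance above the next tissue on the same microarrays, so this follows closely from the choice.

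Inflorescence was high for MYB21, MYB24 and the probe for AT3G27812, and for the flavonol activators MYB111 and MYB12. MYB111 was at 50.4 and 52.6 NEU in inflorescence, 6.54 and 2.68 in leaf, 1.36 and 1.46 in callus and 0.61 and 0.54 in root. The order was inflorescence, leaf, callus and root, with inflorescence 12.3-fold above leaf (adjusted p = 0.00138). MYB12 was at 29.7 and 24.7 NEU in inflorescence and between 1.64 and 4.02 elsewhere, an 8.99-fold difference from root (adjusted p = 0.000498). MYB24 was at 16.7 and 15.8 NEU, and its difference from root (log2 2.70 ± 0.61) was not past the threshold without either inflorescence microarray.

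In leaf, MYB60 was at 27.7 and 25.2 NEU, against 2.93 and 8.93 in root, 5.50 and 6.12 in inflorescence and 3.17 and 4.41 in callus. MYB29 was at 35.0 and 26.6 NEU in leaf and at 2.36 to 10.5 elsewhere. LCL1 was at 80.1 and 96.3 NEU in leaf and 45.9 and 44.0 in inflorescence, a 1.95-fold difference (adjusted p = 0.00856) that was not past the threshold without inflorescence B. The difference of MYB60 between inflorescence and leaf was not past it without any 1 of those 4 microarrays. MYB16, higher in leaf than in root on the direct microarrays, was at 17.8 NEU on root A and 4.00 on root B, against 52.9 and 59.0 in leaf and 142 and 165 in inflorescence. MEE3 was at 11.8 NEU on root A and 1.81 on root B. The log2 difference root minus leaf was -2.73 for MYB16 and -1.52 for MEE3 with root A, and -3.81 and -2.88 without it. Root A also entered the spread of the direct ratios: without it the SE of the root/leaf ratio went from 0.53 to 0.28 for MEE3 and from 0.25 to 0.06 for MYB60, with the ratios unaltered. Over the members, 36 of 180 differed by more than 2-fold between the root microarrays, against 31 between those of callus, 24 of leaf and 16 of inflorescence.

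In root, AT1G74840 was at 86.9 and 92.9 NEU and between 26.3 and 30.3 in the other tissues, with a log2 difference from leaf of 1.58 with and 1.63 without root A. MYB49 was at 14.6 and 17.1 NEU against 2.08 to 6.29 elsewhere. LAF1 was at 7.66 and 7.30 NEU in root and 2.19 and 2.52 in leaf, and its difference from leaf had an adjusted p of 0.0241 with root A and 0.0777 without. MYB104 and AT1G35516 had far smaller differences on the direct microarrays. MYB104 was at 41.3 and 49.9 NEU in root and 5.38 and 15.3 in leaf, a log2 difference of 2.32 that was not past the threshold without root B, while its log2 root/leaf ratios were 0.15 and 0.09 (mean 0.12, adjusted p = 0.0106). AT1G35516 differed by 2.61 on the self-self microarrays and had ratios of 0.08 and -0.03, and without root A it was past the threshold against none of the 3 tissues.

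Of the members that lie next to each other on a chromosome, 19 fell into 8 groups with at most 5 genes between neighbours. Some neighbours differed: MYB24 was at -4.35 in silique over inflorescence, while MYB23 and MYB115 beside it were at -0.07 and -0.18. MYB118 was at 0.42 and MYB21, next to it, at -4.66. AT3G27812, at -5.72 and numbered next to MYB21, is not in the reference table and so was in no group. Other neighbours lay close, as MYB113, MYB114 and MYB90 did in root over leaf (-0.25, -0.25 and -0.26). The 15 listed MYB genes outside the members counted 3 higher and 7 lower in root over leaf, and 4 higher and 8 lower in silique over inflorescence, beside 39.1% and 30.8%, and 32.9% and 32.6%, of all gene probes.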

How the data were processed

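The Agilent values were deposited as scanner output, processed by the authors' laboratory with Agilent Feature Extraction (version 8.1 per the labels, A.6.1.1 or A.7.1.1 per the file headers): background-subtracted, dye-normalized intensity per channel, and a log10 ratio of red over green. The log10 ratio was converted to log2. In the software's output a ratio of 0 stands where neither channel was significant. Spots flagged as outliers were left out. The label protocol speaks of dye-reversal microarrays, but the labels show no dye swap among the 12 microarrays. Probe-specific dye bias was not removed from the ratios. For single tissues the channels were averaged, scaled to a sum of 1000000 (NEU) and logged.

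Ratios of all 12 and NEU of the 8 self-self microarrays were fitted with limma 3.58.1 (R 4.3.3, lmFit and eBayes with a variance trend), 1 mean per microarray type. P-values were adjusted by Benjamini-Hochberg over all gene probes in each comparison, threshold 0.05. The scripts were tested on simulated data. Replicate numbers A and B did not pair samples. Alternatives are given in the closing section. Named members were the 10 highest and 10 lowest called ratios per comparison, up to 5 members per tissue above each other tissue, and members of role lists with their extremes; others were named after their values were seen. The members and lists were chosen with earlier results of these data known. Gene names came from RefSeq (TAIR10.1), and 21191 gene probes matched. The precision is limited by 2 technical replicates. The Affymetrix and sequencing data, probe sequences and coordinates were not used here.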

Additional observations from a re-analysis of the deposited data

Results flagged for a closer look

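Root microarray A carried a signal in a measure that the comparisons did not use. Both channels of a self-self microarray are labelled as 1 RNA, and on root A the red over green ratio correlated with the root/leaf ratio of the members at Pearson's r = 0.43 (184 members) and at 0.62 over all gene probes, while the other 7 self-self microarrays lay between -0.16 and 0.09 for the members. Probes share their microarray, dyes and sequence composition, so that this is a description with no test. Of the members, 19 were over 2-fold higher and 17 over 2-fold lower on root A than on root B. The part of this signal in the single-tissue results was not tested beyond leaving root A out.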

How the results depend on the processing

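The named members followed here are those picked by rank in a ratio or as highest in a tissue, each only in the comparisons that picked it. No alternative reversed the sign of such a value, but splits of called members did change sides. In other pairs of tissues signs could change. Without root A, MYB60 went from 0.18 to -0.62 in inflorescence minus root, and MYB16 from -0.06 to 1.02 in callus minus root. In root over leaf, 58 higher and 53 lower became 52 and 74 with loess and 57 and 60 with median centring. With dye bias estimated from the self-self microarrays they became 57 and 59, or 54 and 57 without root A in that estimate. With quantile normalization callus minus leaf went from 32 higher and 54 lower to 40 and 34. Keeping only members well above background in both channels gave 68 called in silique over inflorescence, 25 of them lower, among fewer members tested. Leaving out each microarray in turn gave 90 to 109 members called in root over leaf, 107 to 117 in silique over inflorescence, 29 to 49 in root minus leaf, 32 to 78 in inflorescence minus leaf, 53 to 90 in inflorescence minus root, and 121 to 148 in at least 1 pair of tissues. The totals called in the other comparisons stayed within 1.5 times. By direction, counts moved by more. Fewer members were lower in inflorescence than in leaf without inflorescence A (21 against 36), without inflorescence B (14) or without leaf B (22). Against root, inflorescence had 17 higher members without A (27 with it) and 35 lower without B (59 with it). Without leaf B, 35 members were lower in callus than in leaf (54 with it), and with quantile normalization 34. Root minus leaf went from 31 higher to 20 without leaf A and to 19 without root B, and from 13 lower to 24 without root A and to 20 with quantile normalization. Members highest in leaf went from 4 to 11 without root A. Of the values of named members, 27 lost their call when 1 microarray was left out (7 without inflorescence B, 5 without root B, 4 each without inflorescence A, leaf A and root A, 2 without leaf B and 1 without callus B), and all belonged to MYB24, MYB47, MYB60, MYB104, LAF1, LCL1 and AT1G35516. Calls of named members in pairs of tissues that did not pick them were not counted here. Some of those were lost as well without root A, such as MYB66 and MYB20 in callus minus root. With the slide series as a random block 89 and 101 members were called in the ratios. Estimating dye bias from all 8 self-self microarrays gave 116 and 109, and from those other than root A, an alternative chosen after seeing the data, 111 and 109; leaving root A out of the ratio fits, likewise chosen later, gave 109 and 117.

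The numbers A and B did not pair the samples: the correlations of their A minus B differences ranged from -0.11 to 0.10 over 15 pairs of microarray types, and from -0.19 to 0.17 over the 6 pairs of single tissues. With the replicate number as a block 108, 118 and 136 members were called in root over leaf, silique over inflorescence and at least 1 pair of tissues, and AT1G35516 was no longer past the threshold in inflorescence minus root. The slide series block also ended the calls of AT1G35516 in callus minus root and inflorescence minus root. Members with a silique signal near background limit the second ratio most.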
